A study of Mus musculus with 6 samples.

Results

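The ZnF1 mutant is a mouse pro-B cell leukaemia culture whose Ikaros protein lacks the first of its DNA-binding zinc fingers, and it was compared here with the same kind of culture carrying wild type Ikaros. The comparison runs over genes. Of 22098 gene symbols in the deposited expression table, 11379 reached at least 1 RPKM (reads divided by transcript length and by the library's mapped total) in at least 2 of 6 libraries and were tested. All cultures descended from whole bone marrow of C57BL/6 mice that received, on day 0, a retrovirus encoding BCR-ABL p185 and, through an IRES, YFP. BCR-ABL, a tyrosine kinase that arises from the Philadelphia chromosome, drives this leukaemia, and wild type and mutant cultures alike carried it. The groups were wild type, Ikaros_ZnF1-/- and Ikaros_ZnF4-/- cells (the last lacking the fourth finger), each sampled once after 21 days and once after 28 days in vitro, so that n = 2 libraries per genotype. The labels call the cells transformed pro-B ALL, name no sort before RNA was taken, and give neither the age of the mice nor the number of cultures. Nothing says that the libraries of both days came from separate cultures, so p-values measure only the spread between these libraries, and a feature of 1 culture cannot be told apart from its genotype.

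Ikaros, encoded by Ikzf1, is a transcription factor that guides lymphocytes as they develop. It also acts as a tumour suppressor and is often deleted in BCR-ABL-positive acute lymphoblastic leukaemia. Zinc fingers near its amino terminus bind DNA at sites with a GGGAA core, with the middle fingers making the core contacts, and zinc fingers at its carboxy terminus pair it with itself and its relatives. It recruits the NuRD chromatin remodelling complex and in B cell precursors takes part in the exit from the cycling, pre-B receptor-dependent stage.

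The sequences of the fingers that separate the mutants are shown because they define the groups. They are the reference coding sequence of Ikzf1 (build GRCm38, GENCODE annotation, + strand), from the codon of the first zinc-binding cysteine to that of the last histidine, with the codons of the zinc-binding residues in capitals. Finger 1 is 63 bases at chr11:11748505-11748567 in exon 5, and finger 4 is 66 bases at chr11:11758212-11758277 in exon 7.
finger 1: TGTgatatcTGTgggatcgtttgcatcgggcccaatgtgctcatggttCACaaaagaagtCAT
finger 4: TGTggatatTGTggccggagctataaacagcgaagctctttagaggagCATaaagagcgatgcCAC
Exon 5 holds 261 coding bases and exon 7 holds 123, both whole numbers of codons. The labels name the missing finger and not the bounds of the deletion. Fingers 2 and 3 lie in exon 6.

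Between 10401 and 10455 symbols reached 1 RPKM in the wild type libraries, 11110 and 11233 in the ZnF1 and 10500 and 10539 in the ZnF4 mutant. The read depth of the libraries is unknown. The labelled B lineage was checked on its markers: 10 of them summed to 2503 to 2899 RPKM over the 6 libraries, with Cd79a at 246.1 and 231.4 RPKM in wild type, 261.4 and 310.9 in the ZnF1 and 226.8 and 223.2 in the ZnF4 mutant. Macrophage markers were present in every library beside them, as described further on. Values below are given for day 21 and then day 28. Ikzf1 stood at 89.2 and 78.7 RPKM in wild type, 108.0 and 91.4 in the ZnF1 and 186.0 and 165.9 in the ZnF4 mutant. The ZnF1 libraries lay just above wild type, and the difference was 0.24 ± 0.07 (SE, adjusted p = 0.0426) on the log2(RPKM + 1) scale. It was not called on omitting either wild type library or either ZnF1 library (adjusted p then up to 0.272). A value over the whole transcript cannot check the loss of 1 finger. Differences are ZnF1 mutant minus wild type on this log2(RPKM + 1) scale, which understates the change of low genes, and a gene was called where limma's adjusted p was below 0.05.

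In the ZnF1 mutant 2606 of the 11379 tested genes were higher (22.9%) and 1730 were lower (15.2%), together 4336 genes (38.1%). These shares are the background against which each gene group below is read, although they varied with expression level. Below a mean of 1 RPKM 53.6% of genes were higher and 3.7% lower, and at 100 RPKM or more 9.9% and 36.8%. No list was compared with genes of its own level. The median of all tested genes was -0.02, and quantile scaling moved it to -0.12. Of the higher genes, 667 passed the filter only through mutant libraries, being below 1 RPKM in wild type on both days. For such genes the filter itself favoured a rise, so a call in every leave-out is not separate support. The calls depended on single libraries: 1142 of the 2606 higher genes (43.8%) and 66 of the 1730 lower genes (3.8%) were called in each of the 6 fits that left out 1 library. Higher genes numbered 1266 without wild type day 28, 1516 without wild type day 21, 1522 without ZnF1 day 21 and 1465 without ZnF1 day 28, and lower genes 132, 143, 148 and 305. Quantile scaling gave 2047 higher and 2913 lower genes, so higher genes made up 60.1% of the calls as deposited and 41.3% there. Gene lists are described by their counts, their median and the number of members called in every leave-out fit ("in every leave-out" below).

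**Figure D1:**
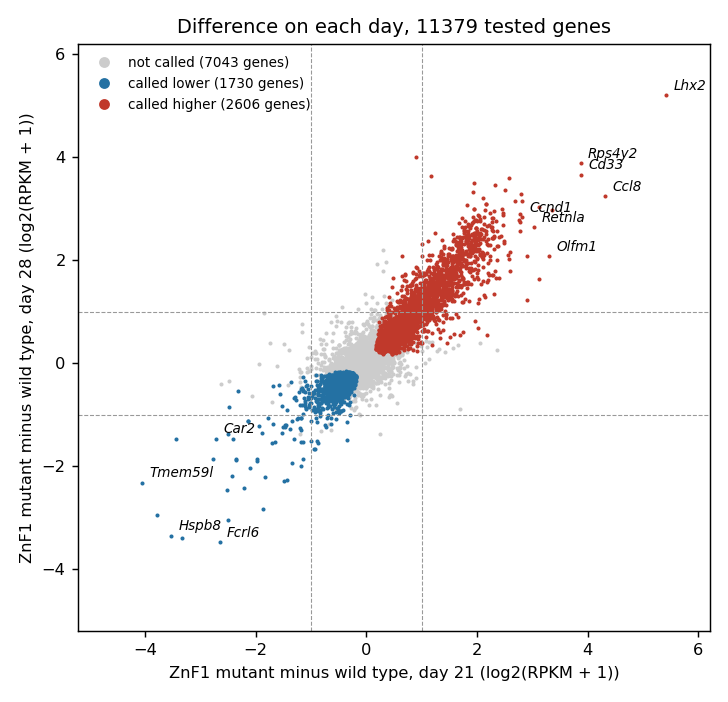
Difference between the ZnF1 mutant and wild type (log2(RPKM + 1)) on day 21 (horizontal axis) and day 28 (vertical axis), 1 point per tested gene. Red points are the 2606 genes called higher, blue points the 1730 called lower and grey points those not called, and dashed lines mark a difference of 1. Lhx2 lies alone at the upper right, and Tmem59l, Hspb8 and Fcrl6 at the lower left.

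The largest rise belonged to Lhx2, a LIM-homeodomain transcription factor of forebrain, limb and early blood progenitors. It stood at 0.3 and 0.3 RPKM in wild type, 54.4 and 47 in the ZnF1 and 11 and 13.8 in the ZnF4 mutant. Both mutants lay above wild type, the ZnF1 mutant highest, and the groups did not overlap. The difference was 5.31 ± 0.14 (SE, adjusted p = 0.000858), and the ZnF4 minus ZnF1 difference was -1.95 (adjusted p = 0.000594). LIM-only proteins, which bridge such factors to other DNA-binding proteins, rose as well. Lmo2 read 2.7 and 2.3 RPKM in wild type and 13.6 and 14.3 in the ZnF1 mutant (2.10 ± 0.10 SE, adjusted p = 0.001). Lmo1 had a listed value of 0 in wild type on both days, and stood at 3.0 and 2.2 in the ZnF1 and at 9.7 and 12.3 in the ZnF4 mutant. Of 10 tested genes of this family and its cofactors 3 rose and 1 (Ssbp3, -0.34) fell, while Ldb1, the shared scaffold, differed by -0.20 ± 0.07 (SE, adjusted p = 0.0726). The call of Ssbp3 was lost on omitting either wild type library or either ZnF1 library (adjusted p then up to 0.227). Crip1, a small LIM protein, went from 1014.0 and 972.8 to 242.5 and 628.3 RPKM without passing the test (adjusted p = 0.0606). Without 1 library at a time (wild type day 21, wild type day 28, ZnF1 day 21 and ZnF1 day 28, in this order), lower LIM partner genes numbered 0, 0, 0 and 1. There were 2 lower LIM partner genes without ZnF4 day 21 and 2 lower LIM partner genes without ZnF4 day 28.

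The promoter of Lhx2 is shown because no other gene rose as far, and that of Hspb8 because no other gene fell as far. Each runs from 250 bases before to 50 bases after a RefSeq gene start (build GRCm38.p6), in the gene's own direction, with matches to TGGGAA, the Ikaros core motif searched on both strands, in capitals. Of 27025 mouse RefSeq promoters of this length 25.5% hold a match, so a match is a description of the window and not a binding site. Lhx2 has 1 match in the window shown, and Hspb8 has none. The reference lists 2 promoters for Lhx2, and only the first was examined.
Lhx2 (chr2:38339031-38339330, + strand): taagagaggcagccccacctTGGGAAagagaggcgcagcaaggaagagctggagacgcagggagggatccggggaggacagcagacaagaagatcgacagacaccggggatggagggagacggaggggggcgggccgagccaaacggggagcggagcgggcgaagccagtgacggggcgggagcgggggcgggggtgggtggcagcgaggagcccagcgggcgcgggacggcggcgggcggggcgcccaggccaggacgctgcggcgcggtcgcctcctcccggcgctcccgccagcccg
Hspb8 (chr5:116422815-116423114, - strand): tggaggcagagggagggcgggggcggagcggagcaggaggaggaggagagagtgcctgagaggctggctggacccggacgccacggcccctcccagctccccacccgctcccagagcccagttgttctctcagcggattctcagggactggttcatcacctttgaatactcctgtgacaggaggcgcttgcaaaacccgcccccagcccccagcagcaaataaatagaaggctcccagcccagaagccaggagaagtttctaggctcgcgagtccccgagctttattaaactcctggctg
G and C make up 74.7% of the Lhx2 window and 62.3% of that of Hspb8, against a median of 52.7% over all promoters.

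Several further genes that rose furthest were high in the ZnF4 mutant too. ZnF4 and ZnF1 mutants differed at 5177 of the 11379 genes (45.5%), and both comparisons use the same ZnF1 libraries. Hip1, a clathrin adaptor, stood at 1.6 and 1.1 RPKM in wild type, 21.7 and 16.3 in the ZnF1 and 23.3 and 20.4 in the ZnF4 mutant. Its ZnF1 difference was 3.08 ± 0.09 (SE, adjusted p = 0.000858), and the ZnF4 minus ZnF1 difference was 0.20 (adjusted p = 0.121). Col6a6, a collagen VI chain, read 1.2 and 1.0 RPKM in wild type, 14 and 13.9 in the ZnF1 and 16.5 and 14.5 in the ZnF4 mutant (2.83 ± 0.09 SE, adjusted p = 0.000907). Ccnd1, which encodes cyclin D1 of the G1 phase, read 5.7 and 4.9 in wild type, 46.1 and 41.1 in the ZnF1 and 31.5 and 33.2 in the ZnF4 mutant. Its wild type libraries lay below all mutant libraries (2.82 ± 0.09 SE, adjusted p = 0.000907), and the ZnF4 minus ZnF1 difference was -0.42 (adjusted p = 0.0165). The other D cyclins were not called: Ccnd2 differed by 0.41 ± 0.17 (SE, adjusted p = 0.108) and Ccnd3 by -0.04 ± 0.12 (SE, adjusted p = 0.806). Ccnd3 was the most abundant of them per length, at 348.7 and 326.4 RPKM in wild type and 308.2 and 348.6 in the ZnF1 mutant.

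Aes, a Groucho-family corepressor, read 22.1 and 7.0 RPKM in wild type, 88.3 and 89.6 in the ZnF1 and 72.7 and 66.4 in the ZnF4 mutant, with the widest gap between days in wild type. Its difference of 2.73 ± 0.38 (SE, adjusted p = 0.00516) was not called on omitting the ZnF1 day 28 library (adjusted p then up to 0.062). Olfm1, a secreted olfactomedin, read 0.6 and 0.9 RPKM in wild type, 14.8 and 7.0 in the ZnF1 and 8.9 and 12.9 in the ZnF4 mutant, and its call (2.69 ± 0.36 SE, adjusted p = 0.00438) was lost on omitting either wild type library (adjusted p then up to 0.069). A second set was highest in the ZnF4 mutant. Kit, the stem cell factor receptor, stood at 0.1 and 0.0 RPKM in wild type, 2.6 and 1.8 in the ZnF1 and 17.4 and 12.5 in the ZnF4 mutant (1.60 ± 0.11 SE, adjusted p = 0.00109). Hoxb7 was listed at 0.0 and 0.0 RPKM in wild type, 2.7 and 2.6 in the ZnF1 and 18.6 and 11.4 in the ZnF4 mutant, and Hoxb6 at 0.1 and 0.0 RPKM in wild type, 1.1 and 1.6 in the ZnF1 and 4.9 and 4.9 in the ZnF4 mutant. Of 7 tested Hox genes 6 were called higher in the ZnF1 mutant, against 22.9% of all genes and 53.6% of those with a mean below 1 RPKM. The 27 listed Hox genes together summed to 2.9 and 2.5 RPKM in wild type. Hoxb7 and Hoxb6 passed the filter only through mutant libraries. The filter thus favoured Hox genes that rose, and their count is not separate support. Hoxb4 (0.39) turned to -0.0092 with quantile scaling. The call of Hoxb4 was lost on omitting any single library of the 6 (adjusted p then up to 0.261). The linked imprinted pair Igf2, a growth factor, and H19, a non-coding RNA, rose too. Igf2 read 0.7 and 0.2 in wild type, 6.1 and 5.9 in the ZnF1 and 247.2 and 175.2 in the ZnF4 mutant (2.29 ± 0.14 SE, adjusted p = 0.001). H19 read 12.2 and 1.3 RPKM in wild type, 23.7 and 36 in the ZnF1 and 3062.2 and 2008.3 in the ZnF4 mutant (2.46 ± 0.69 SE, adjusted p = 0.0422), and its call was lost on omitting the wild type day 28 library, either ZnF1 library or either ZnF4 library (adjusted p then up to 0.227). Of 16 tested imprinted genes 7 rose and none fell, among them Grb10 (1.62), an adaptor that restrains growth factor receptors, and Ddc (2.16). Leaving out 1 library at a time (wild type day 21, wild type day 28, ZnF1 day 21 and ZnF1 day 28) gave, in this order, 3, 3, 4 and 4 higher Hox genes, and 6, 4, 5 and 4 higher imprinted genes.

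**Figure D2:**
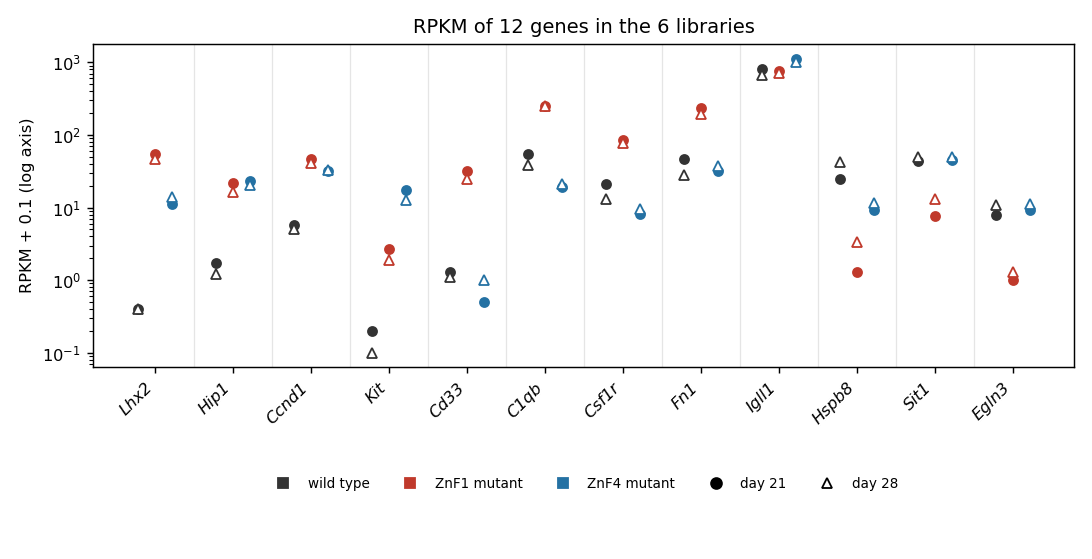
RPKM plus 0.1 (log axis) of 12 genes in the 6 libraries, with wild type in black, the ZnF1 mutant in red and the ZnF4 mutant in blue, circles for day 21 and triangles for day 28. Lhx2, Hip1, Ccnd1 and Kit lie above wild type in both mutants, Cd33, C1qb, Csf1r and Fn1 in the ZnF1 mutant, Igll1 stays near wild type in the ZnF1 mutant, and Hspb8, Sit1 and Egln3 lie below wild type in the ZnF1 mutant.

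Genes of macrophages, the tissue phagocytes of the myeloid lineage, rose as a group. Of 32 tested macrophage surface receptors 31 rose and none fell (median 2.09, 27 in every leave-out), against 22.9% of all genes. Csf1r, the receptor for the macrophage growth factor, read 21.2 and 13 RPKM in wild type, 85.5 and 77 in the ZnF1 and 8.1 and 9.6 in the ZnF4 mutant. The ZnF1 libraries lay above all others and the ZnF4 libraries below wild type (2.22 ± 0.21 SE, adjusted p = 0.00167). Trem2, a lipid-sensing receptor, and its signalling partner Tyrobp rose by 2.45 and 2.37, and the inhibitory receptor Sirpa by 2.38. Scavenger and pattern receptors rose too, among them Clec7a (2.43), Cd14 (2.36), Msr1 (2.02) and Colec12 (3.04). Cd33, a sialic acid-binding receptor, stood at 1.2 and 1.0 RPKM in wild type and 31.4 and 24.3 in the ZnF1 mutant, a ratio of 25.3 and the highest among genes with at least 1 RPKM in the 4 libraries. Marco, another scavenger receptor, was the exception at 1.4 and 0.8 RPKM in wild type and 1.2 and 1.3 in the ZnF1 mutant.

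The 10 macrophage markers summed to 494.0 and 314.8 RPKM in wild type, 1946 and 1838 in the ZnF1 and 202.4 and 265.1 in the ZnF4 mutant, and all 10 were called higher in the ZnF1 mutant. Their ratios of ZnF1 to wild type RPKM lay between 4.23 and 5.76, with a median of 5.09. Lyz2, the lysozyme of phagocytes, gave the largest part of the sum at 927.8 and 893.5 RPKM in the ZnF1 mutant against 263.8 and 166.7 in wild type. Macrophage markers thus moved with genotype beside every myeloid group below, and their part in these results was not tested. In bulk RNA a change in the number of cells of a type and a change in RNA per cell cannot be told apart. The macrophage and stromal markers with at least 1 RPKM in the wild type and ZnF1 libraries had ratios of 3.17 to 5.91. Among the 1768 genes called higher at that level, 1367 had ratios below this range, 336 within it and 65 above it. Stromal markers below that level were left out of the range, at 3.07 (Col3a1), 7.11 (Pdgfrb), 9.05 (Cxcl12) and 10.4 (Vcam1). Genes above the range included Cd33, Hip1 (14.1), Col6a6 (12.7), Ccnd1 (8.23) and the sphingosine-1-phosphate receptors S1pr3 (8.74) and S1pr1 (6.37). Ccnd1, S1pr3 and S1pr1 lay below the ratio of Vcam1. The 2 receptors were chosen after their values were seen. S1pr3 read 1.7 and 1.0 RPKM in wild type, 13.5 and 10.1 in the ZnF1 and 9.1 and 8.5 in the ZnF4 mutant, and S1pr1, which guides lymphocyte egress, 5.1 and 4.1 RPKM in wild type, 33.1 and 25.5 in the ZnF1 and 17.7 and 11 in the ZnF4 mutant.

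Complement genes rose throughout, at 10 of 10 tested (median 2.40, 8 in every leave-out). C1qb, a chain of the complex that starts the classical pathway, stood at 54.4 and 38.3 RPKM in wild type, 249.8 and 246.9 in the ZnF1 and 19.3 and 20.8 in the ZnF4 mutant. The 3 genotypes did not overlap, with the ZnF4 mutant lowest (2.42 ± 0.15 SE, adjusted p = 0.001). C1qa (2.38), C1qc (2.45), the properdin gene Cfp (2.43) and the anaphylatoxin receptors C3ar1 (2.56) and C5ar1 (2.38) differed by similar amounts. C3 itself rose by 2.58 ± 0.49 (SE, adjusted p = 0.0141), a call lost on omitting either wild type library or either ZnF1 library (adjusted p then up to 0.141). The decay-accelerating factor Cd55 rose least (0.85), and its call was lost on omitting the wild type day 21 library or either ZnF1 library (adjusted p then up to 0.126).

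Lysosomal genes, which digest what phagocytes take up, rose at 34 of 36 (median 1.17, 25 in every leave-out). Protease genes were among the most abundant. Ctsd read 198.7 and 135.6 RPKM in wild type, 773.3 and 921.3 in the ZnF1 and 128.3 and 129.0 in the ZnF4 mutant, and the ZnF1 libraries lay far above the rest (2.36 ± 0.20 SE, adjusted p = 0.00135). Ctsb (2.13), Ctsl (2.66), Ctsh (2.46) and Ctss (1.93) followed. Psap, the precursor of lipid-degrading cofactors, read 344.3 and 264.6 in wild type and 804.7 and 896.1 in the ZnF1 mutant. Gpnmb, a glycoprotein of phagocytes, read 139.6 and 83.9 RPKM in wild type and 496.7 and 709.6 in the ZnF1 mutant (2.44 ± 0.29 SE, adjusted p = 0.00319). The osteoclast-associated proton pump subunit Atp6v0d2 rose by 2.46, and the widely expressed subunits Atp6v1a and Atp6v0d1 rose as well (0.67 and 0.61). The call of Atp6v1a was lost on omitting either wild type library or the ZnF1 day 28 library (adjusted p then up to 0.113). The call of Atp6v0d1 was lost on omitting the wild type day 28 library (adjusted p then up to 0.0612). Ctse was the only lysosomal gene called lower (-0.64), and its call was lost on omitting either wild type library or the ZnF1 day 21 library (adjusted p then up to 0.0979).

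Genes of lipid uptake and efflux rose at 16 of 22 and fell at 1 (median 1.78, 13 in every leave-out). Cd36, a fatty acid translocase, read 22.1 and 11.9 RPKM in wild type, 137.3 and 155.8 in the ZnF1 and 33.6 and 15.4 in the ZnF4 mutant. Lpl, the lipase that frees fatty acids from lipoproteins, read 35.3 and 18.1 RPKM in wild type, 204.2 and 195.9 in the ZnF1 and 20.4 and 15 in the ZnF4 mutant, and Apoe, the main apolipoprotein of macrophages, 49 and 31.4 RPKM in wild type, 262.2 and 175.7 in the ZnF1 and 12.2 and 13 in the ZnF4 mutant. For all of these the ZnF1 libraries were highest without overlap. The nuclear receptors of this programme, Pparg (2.29) and Nr1h3 (1.76), and the cholesterol exporter Abca1 (2.29) rose.

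Macrophage and myeloid transcription factors rose at 26 of 34 with none lower (median 1.07, 15 in every leave-out). Among them were Tcfec (1.96), Maf (1.91) and Mitf (1.51). Sfpi1, the table's name for the gene of PU.1, which myeloid and B cells share, rose less: 44.9 and 48.4 RPKM in wild type, 84.4 and 83.2 in the ZnF1 and 40.2 and 46.5 in the ZnF4 mutant (0.83 ± 0.08 SE, adjusted p = 0.00179). Cebpa, the driver of myeloid fate, rose from 1.3 and 0.9 to 4.0 and 8.8 RPKM and Cebpb from 0.6 and 0.7 to 3.1 and 6.5. The calls of Cebpa and Cebpb were lost on omitting the wild type day 28 library (adjusted p then up to 0.104 and 0.0566). Irf8, which both lineages express, was not called (-0.22 ± 0.14 SE, adjusted p = 0.265). With single libraries removed in turn (wild type day 21, wild type day 28, ZnF1 day 21 and ZnF1 day 28), higher myeloid transcription factors numbered 20, 17, 22 and 22.

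Secreted immune mediators followed. Of 16 tested chemokines 15 rose and none fell (median 1.73, 12 in every leave-out). Ccl8, a monocyte attractant, read 1.0 and 0.3 RPKM in wild type, 38.6 and 11.3 in the ZnF1 and 1.4 and 1.5 in the ZnF4 mutant, with the ZnF1 libraries apart from each other as well (3.77 ± 0.40 SE, adjusted p = 0.00217). Ccl6 was the most abundant, at 36.9 and 22.1 in wild type and 134.6 and 150.0 in the ZnF1 mutant. Ccl2 differed in its ZnF4 pattern, at 11 and 7.0 RPKM in wild type, 43.2 and 32.8 in the ZnF1 and 45.4 and 104.9 in the ZnF4 mutant, so the ZnF4 mutant was highest. Its ZnF1 call (1.98 ± 0.43 SE, adjusted p = 0.0204) was lost on omitting either wild type library or either ZnF1 library (adjusted p then up to 0.179). Of 26 inflammatory cytokines and receptors 18 rose and 1 (Lif) fell (median 0.77, 13 in every leave-out). The rises included the TNF receptor Tnfrsf1a (2.19), the interleukin-1 antagonist Il1rn (2.04) and the interleukin-6 receptor chain Il6ra (1.44), while Tnf itself was not called (0.18 ± 0.20 SE, adjusted p = 0.527). Lif read 7.7 and 12.8 RPKM in wild type and 2.4 and 9.7 in the ZnF1 mutant (-0.86 ± 0.23 SE, adjusted p = 0.0383), a call lost on omitting either wild type library, the ZnF1 day 21 library or either ZnF4 library (adjusted p then up to 0.244).

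Toll-like receptors and their adaptors, sensors of microbial products, rose at 16 of 20 with none lower (median 0.65, 8 in every leave-out). After Cd14 (2.36), a co-receptor, came the receptors Tlr13 (2.21), Tlr8 (2.05), Tlr1 (1.81) and Tlr7 (1.69), and the shared adaptor Myd88 differed by 0.26 ± 0.07 (SE, adjusted p = 0.0398), a call lost on omitting either wild type library or either ZnF1 library (adjusted p then up to 0.266). Interferon-stimulated genes rose at 19 of 33 and fell at 2, with a median of 0.44 and 4 called in every leave-out. Ifitm3 was the most abundant of the rises at 17.3 and 12.7 RPKM in wild type, 64.8 and 77.4 in the ZnF1 and 34.7 and 94.9 in the ZnF4 mutant, and its call (2.18 ± 0.41 SE, adjusted p = 0.0135) was lost on omitting the wild type day 28 library or either ZnF1 library (adjusted p then up to 0.131). Of 15 MHC class II genes, which present antigen on macrophages and B cells, 9 rose and none fell. Cd74, the invariant chain, read 90.1 and 124.6 RPKM in wild type, 480.9 and 396.8 in the ZnF1 and 17.4 and 21.6 in the ZnF4 mutant, and the 3 genotypes did not overlap (2.03 ± 0.18 SE, adjusted p = 0.00158). H2-Aa read 0.4 and 0.2 RPKM in wild type, 9.5 and 4.1 in the ZnF1 and 1.0 and 0.6 in the ZnF4 mutant. Of 20 genes of MHC class I and peptide processing 3 rose and 2 fell, and the most abundant, B2m, stood at 1991.8 and 1767.6 RPKM in wild type and 1628.0 and 2079.4 in the ZnF1 mutant (adjusted p = 0.905). In fits that each lacked 1 library (wild type day 21, wild type day 28, ZnF1 day 21 and ZnF1 day 28, in this order), higher Toll-like receptor genes numbered 10, 9, 10 and 11, higher interferon-stimulated genes numbered 12, 6, 12 and 8, lower ones numbered 0, 0, 0 and 1, higher class I genes numbered 1, 1, 2 and 1, and lower class I genes numbered 0, 0, 0 and 1.

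Genes of stromal cells, the fibroblast-like cells of marrow, rose beside those of macrophages. The 10 stromal markers summed to 91.4 and 60.2 RPKM in wild type, 428.5 and 382.9 in the ZnF1 and 56.0 and 58.6 in the ZnF4 mutant. All 10 were called higher, with ratios between 3.17 and 5.91 for the 6 markers of at least 1 RPKM. Their part in the rises of matrix, contractile and niche genes was not tested. Matrix glycoproteins and proteoglycans rose at 27 of 28 (median 1.78, 20 in every leave-out). Fn1, which encodes fibronectin, read 46.1 and 28.1 RPKM in wild type, 238.1 and 197.3 in the ZnF1 and 32.1 and 36.7 in the ZnF4 mutant (2.56 ± 0.20 SE, adjusted p = 0.00129). Macrophages express it too, and also Spp1 (osteopontin), which was the most abundant of the list at 238.9 and 198.8 RPKM in wild type, 993.0 and 1012.5 in the ZnF1 and 96.2 and 83.3 in the ZnF4 mutant. For both, the ZnF1 libraries lay above every other library. Bgn (biglycan, 2.51), Timp2 (2.30), Cyr61 (2.27) and Thbs1 (2.26) rose by similar amounts.

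Of 12 tested collagen chains 11 rose and none fell (median 1.30, 9 in every leave-out). Col6a1 read 4.9 and 1.3 RPKM in wild type, 28.2 and 16.8 in the ZnF1 and 2.5 and 1.7 in the ZnF4 mutant, Col1a2 3.7 and 2.5 RPKM in wild type, 13.8 and 12.6 in the ZnF1 and 1.6 and 1.6 in the ZnF4 mutant, and Col1a1 1.8 and 1.9 RPKM in wild type, 8.3 and 8.2 in the ZnF1 and 0.8 and 1.0 in the ZnF4 mutant. Each was highest in the ZnF1 mutant, unlike Col6a6. Col1a2 and Col1a1 were lowest in the ZnF4 mutant, while the wild type and ZnF4 ranges of Col6a1 overlapped. Collagen-modifying enzymes rose at 15 of 18 (median 1.17, 12 in every leave-out). They included the lysyl hydroxylase Plod1 (2.08), the procollagen enhancer Pcolce (1.96) and the lysyl oxidase Loxl1 (1.47), while P4hb, which has general roles in protein folding, was not called (0.09 ± 0.07 SE, adjusted p = 0.355). Serpinh1, the collagen chaperone, read 3.4 and 2.1 RPKM in wild type, 16.3 and 15.6 in the ZnF1 and 25.6 and 58.8 in the ZnF4 mutant, so the ZnF4 mutant was highest. Its ZnF1 call (2.20 ± 0.39 SE, adjusted p = 0.0107) was lost on omitting the wild type day 28 library or either ZnF1 library (adjusted p then up to 0.118).

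Marrow niche factors, which support haematopoietic cells, rose at 13 of 17 with none lower (median 1.38, 11 in every leave-out). Cxcl12, the chemokine that holds progenitors in marrow, read 1.3 and 0.8 RPKM in wild type, 10.3 and 8.7 in the ZnF1 and 1.2 and 1.0 in the ZnF4 mutant (2.36 ± 0.10 SE, adjusted p = 0.001). Kitl, the ligand of Kit, read 0.6 and 0.2 RPKM in wild type, 3.2 and 2.5 in the ZnF1 and 0.4 and 0.2 in the ZnF4 mutant (1.47 ± 0.11 SE, adjusted p = 0.00109). Vcam1, which binds integrins of B cell precursors, read 0.4 and 0.4 RPKM in wild type and 4.6 and 3.7 in the ZnF1 mutant. Alpl, the tissue-nonspecific phosphatase, was far more abundant and not called at 192.7 and 190.4 RPKM in wild type and 188.6 and 209.1 in the ZnF1 mutant. Contractile genes rose at 12 of 13 (median 1.33, 8 in every leave-out). The actin cross-linker Actn1 read 9.1 and 9.4 RPKM in wild type, 55.4 and 51.7 in the ZnF1 and 24 and 28.5 in the ZnF4 mutant, and Cald1 and Myl9 rose by 2.12 and 1.98.

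Several markers of other marrow cells were at or near 0, while the T cell and endothelial sums, 15.9 to 46.9 and 14 to 29.7 RPKM over the 6 libraries, came mostly from Lck and Pecam1. Among granulocyte markers, Elane, Mpo and Ltf were listed at 0 in the wild type and ZnF1 libraries, Camp and S100a9 stayed below 1 RPKM in all 6, and S100a8 read 0.4 and 0.1 in wild type and 1.2 and 2.1 in the ZnF1 mutant. Mmp9, a gelatinase that neutrophils and macrophages share, read 12.9 and 14.2 RPKM in wild type, 94.5 and 100 in the ZnF1 and 8.9 and 34.7 in the ZnF4 mutant. Its call (2.76 ± 0.45 SE, adjusted p = 0.00828) was lost on omitting either wild type library or the ZnF1 day 21 library (adjusted p then up to 0.105). The T cell receptor genes Cd3e and Cd3g and the coreceptor gene Cd8a were listed at 0, while Cd4, which mouse macrophages can carry, read 0.4 and 0.2 in wild type and 8.5 and 7.2 in the ZnF1 mutant (2.77 ± 0.13 SE, adjusted p = 0.001). Lck, a T cell kinase, was lower at 36.3 and 46.7 RPKM in wild type and 11.7 and 30.5 in the ZnF1 mutant (-1.08 ± 0.32 SE, adjusted p = 0.0495), a call lost on omitting either wild type library, the ZnF1 day 21 library or either ZnF4 library (adjusted p then up to 0.285). No erythroid marker was tested, with Hba-a1 at 0. Among mast cell genes Cpa3 read 0.0 and 0.0 in wild type and 3.3 and 3.4 in the ZnF1 mutant (2.12 ± 0.11 SE, adjusted p = 0.001). Of the endothelial markers Kdr read 0.2 and 0.2 RPKM in wild type and 2.5 and 1.2 in the ZnF1 mutant (1.21 ± 0.18 SE, adjusted p = 0.00596), a call lost on omitting the wild type day 21 library. Cd4, Cpa3 and Kdr were below 1 RPKM in wild type and passed the filter only through mutant libraries. Pecam1, which myeloid cells also express, stood at 25 and 26.1 RPKM in wild type and 26.7 and 26.4 in the ZnF1 mutant and was not called (0.05 ± 0.08 SE, adjusted p = 0.616).

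**Figure D3:**
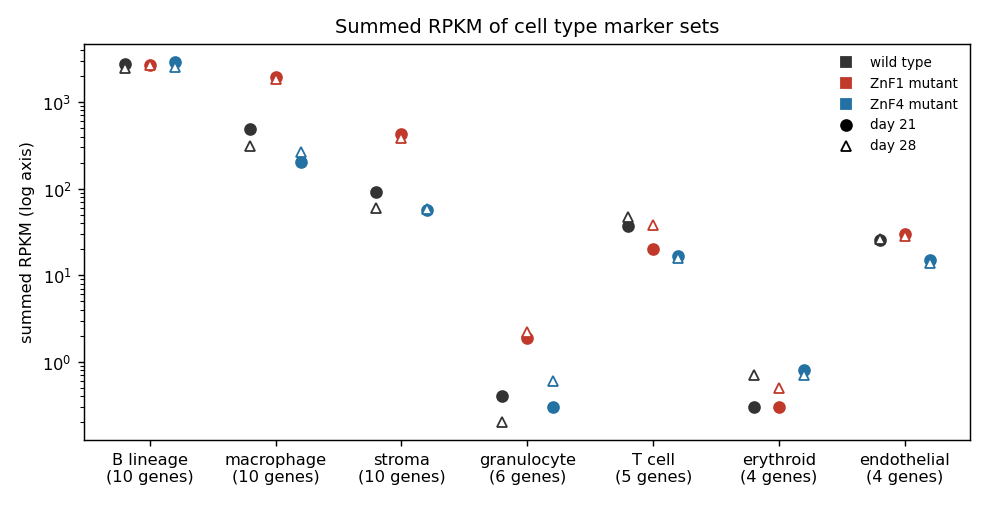
Summed RPKM (log axis) of 7 sets of cell type markers in the 6 libraries, with wild type in black, the ZnF1 mutant in red and the ZnF4 mutant in blue, circles for day 21 and triangles for day 28. Macrophage and stromal sums are highest in the ZnF1 mutant while B lineage sums lie between 2503 and 2899 RPKM in all libraries, and granulocyte and erythroid sums are the lowest.

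B lineage markers, by contrast, summed to 2764 and 2503 RPKM in wild type and 2654 and 2648 in the ZnF1 mutant. Of 20 genes of pro-B and pre-B identity 3 rose and 3 fell (median -0.06). Igll1, the surrogate light chain gene that marks pre-B receptor expression, read 810.6 and 663.0 in wild type, 756.8 and 704.6 in the ZnF1 and 1124.8 and 1005.9 in the ZnF4 mutant. Wild type and ZnF1 ranges overlapped (-0.01 ± 0.11 SE, adjusted p = 0.974), and the ZnF4 mutant was above the ZnF1 mutant by 0.54 (adjusted p = 0.0133). Cd79a and Cd79b, the signalling chains of the B cell receptor, were not called (0.26 ± 0.11 SE, adjusted p = 0.122 and 0.33 ± 0.10 SE, adjusted p = 0.0572). Il7r, the receptor of the main growth factor of B cell precursors, was higher without overlap: 41.4 and 45.5 RPKM in wild type, 82.3 and 95.8 in the ZnF1 and 38.3 and 39.7 in the ZnF4 mutant (1.02 ± 0.07 SE, adjusted p = 0.00109). Rag2, part of the recombinase, read 9.2 and 7.5 RPKM in wild type, 19 and 13.1 in the ZnF1 and 20.6 and 15 in the ZnF4 mutant (0.85 ± 0.09 SE, adjusted p = 0.0022). Its partner Rag1 read 11.6 and 9.2 RPKM in wild type, 54.7 and 23.9 in the ZnF1 and 49.6 and 44.3 in the ZnF4 mutant, with the ZnF1 libraries far apart, and its call (1.72 ± 0.25 SE, adjusted p = 0.0056) was lost on omitting either wild type library (adjusted p then up to 0.0827). Cd24a, a surface glycoprotein that is high in B cell precursors, fell from 208.2 and 178.2 to 92.3 and 100.6 RPKM (-0.99 ± 0.11 SE, adjusted p = 0.00249). Spn and Tcf3 were the other members called lower. The call of Spn was lost on omitting the wild type day 21 library, either ZnF1 library or either ZnF4 library (adjusted p then up to 0.21). The call of Tcf3 was lost on omitting any single library of the 6 (adjusted p then up to 0.245). Without 1 library at a time (wild type day 21, wild type day 28, ZnF1 day 21 and ZnF1 day 28, in this order), lower pro-B and pre-B genes numbered 1, 2, 1 and 1. There were 5 lower pro-B and pre-B genes without ZnF4 day 21 and 5 lower pro-B and pre-B genes without ZnF4 day 28.

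Of 28 B cell transcription factors 7 were higher and 5 lower, shares near those of all genes (22.9% and 15.2%), with a median of -0.08 that quantile scaling turned to 0.02. Pax5 and Ebf1, which hold B cell identity, were not called (0.27 ± 0.09 SE, adjusted p = 0.0607 and -0.26 ± 0.09 SE, adjusted p = 0.0752). Among the rises were Bcl6, the germinal centre repressor (1.7 and 1.1 RPKM in wild type, 6.0 and 6.4 in the ZnF1 mutant, 1.60 ± 0.15 SE, adjusted p = 0.00173), Id2, an inhibitor of E proteins (5.4 and 5.1 RPKM in wild type and 15.2 and 23.6 in the ZnF1 mutant, 1.68 ± 0.17 SE, adjusted p = 0.00211), and Zeb2 (1.02). Macrophages express these as well. Pou2af1, the B cell coactivator, fell from 468.8 and 476.8 to 294.1 and 333.7 RPKM (-0.59 ± 0.09 SE, adjusted p = 0.00758), and Ets1 fell by 0.50. The call of Pou2af1 was lost on omitting either wild type library or the ZnF1 day 21 library (adjusted p then up to 0.116). The call of Ets1 was lost on omitting either wild type library, the ZnF1 day 21 library or either ZnF4 library (adjusted p then up to 0.258). The Ikaros relative Ikzf3 (Aiolos), which accumulates as pre-B cells differentiate, read 72.4 and 77.2 RPKM in wild type, 49.3 and 56.9 in the ZnF1 and 52.8 and 51.7 in the ZnF4 mutant. The difference of -0.49 ± 0.08 (SE, adjusted p = 0.00882) was not called on omitting either wild type library or the ZnF1 day 21 library (adjusted p then up to 0.107). Leaving out 1 library at a time (wild type day 21, wild type day 28, ZnF1 day 21 and ZnF1 day 28) gave, in this order, 0, 1, 0 and 2 lower B cell transcription factors.

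Among 20 kinases and adaptors of the pre-B receptor 6 rose and 2 fell (median 0.04). Lat2, an adaptor of B and myeloid cells, rose by 1.69 and Lyn, a Src-family kinase of both, by 0.92, at 28.9 and 20.8 RPKM in wild type and 49.4 and 45.1 in the ZnF1 mutant. Pik3ap1, the PI3-kinase adaptor BCAP, rose by 1.17 ± 0.15 (SE, adjusted p = 0.0044), a call lost on omitting the wild type day 28 library (adjusted p then up to 0.0766). Blnk, the central adaptor, and Btk were not called (-0.17 ± 0.09 SE, adjusted p = 0.17 and -0.12 ± 0.09 SE, adjusted p = 0.34), and Blk, a B cell kinase, spanned 71.3 and 67.4 RPKM in wild type and 30.4 and 25.4 in the ZnF1 mutant (-1.29 ± 0.43 SE, adjusted p = 0.0675). Of 19 genes of later B cell stages 11 rose and 2 fell. The rises included costimulatory and homing genes that macrophages also use: Cd86 (1.86), Cd80 (1.32) and Ccr7 (1.32). Cd2 and Cd38 were more abundant and rose by 0.94 and 1.16. The call of Cd2 was lost on omitting either wild type library or either ZnF1 library (adjusted p then up to 0.106). The call of Cd38 was lost on omitting the wild type day 21 library or either ZnF1 library (adjusted p then up to 0.128). Ly6d, which marks commitment to the B lineage, went the other way at 107.2 and 110.1 RPKM in wild type, 23.6 and 49.8 in the ZnF1 and 2.2 and 3.2 in the ZnF4 mutant. Wild type was highest and the ZnF4 mutant lowest, and the ZnF1 call (-1.63 ± 0.23 SE, adjusted p = 0.00556) was lost on omitting the wild type day 21 library (adjusted p then up to 0.0558). With single libraries removed in turn (wild type day 21, wild type day 28, ZnF1 day 21 and ZnF1 day 28), higher kinases and adaptors numbered 3, 3, 3 and 3, lower ones numbered 0, 0, 0 and 0, higher later-stage genes numbered 5, 7, 7 and 7, and lower later-stage genes numbered 1, 2, 1 and 2. There were 1 lower later-stage genes without ZnF4 day 21 and 1 lower later-stage genes without ZnF4 day 28.

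The largest fall was that of Hspb8, a small heat shock protein, whose promoter is printed above. It read 24.3 and 43 RPKM in wild type, 1.2 and 3.3 in the ZnF1 and 9.2 and 11.3 in the ZnF4 mutant. Every mutant library lay below wild type (-3.44 ± 0.18 SE, adjusted p = 0.001), and the ZnF4 mutant was above the ZnF1 mutant by 1.86 (adjusted p = 0.00116). Tmem59l read 30.4 and 30.6 RPKM in wild type, 0.9 and 5.3 in the ZnF1 and 0.6 and 0.9 in the ZnF4 mutant, and no ZnF4 library lay above a ZnF1 library. Its call was lost on omitting the wild type day 21 library (adjusted p then up to 0.0569). Fcrl6, an Fc receptor-like gene, read 23.4 and 52.7 RPKM in wild type, 2.9 and 3.8 in the ZnF1 and 0.3 and 0.2 in the ZnF4 mutant (-3.06 ± 0.29 SE, adjusted p = 0.00177), while its 3 tested relatives Fcrla, Fcrls and Fcrl1 were higher (0.56, 0.58 and 0.62). The call of Fcrla was lost on omitting any single library of the 6 (adjusted p then up to 0.156). The call of Fcrls was lost on omitting either wild type library or the ZnF1 day 21 library (adjusted p then up to 0.112). The call of Fcrl1 was lost on omitting either wild type library or either ZnF1 library (adjusted p then up to 0.0778). Camk2b, a calcium-dependent kinase gene, read 4.9 and 3.6 RPKM in wild type, 0.1 and 0.0 in the ZnF1 and 0.1 and 0.1 in the ZnF4 mutant.

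Another set fell in the ZnF1 mutant and stood near wild type in the ZnF4 mutant. Egln3, a prolyl hydroxylase that marks HIF proteins for destruction, read 7.8 and 10.8 RPKM in wild type, 0.9 and 1.2 in the ZnF1 and 9.2 and 11.1 in the ZnF4 mutant (-2.32 ± 0.10 SE, adjusted p = 0.001). Sit1, a membrane adaptor of lymphocytes, read 43.2 and 50.2 RPKM in wild type, 7.6 and 13 in the ZnF1 and 44.5 and 49.7 in the ZnF4 mutant (-2.12 ± 0.15 SE, adjusted p = 0.00102). The ZnF4 minus ZnF1 difference was 2.44 (adjusted p = 0.000376) for Egln3 and 2.13 (adjusted p = 0.000573) for Sit1. Grap2, an adaptor of antigen receptor signalling, read 11.1 and 20.6 RPKM in wild type, 2.1 and 4.9 in the ZnF1 and 8.0 and 12.9 in the ZnF4 mutant (-1.92 ± 0.10 SE, adjusted p = 0.001). The neighbouring carbonic anhydrase genes Car2 and Car3 both fell: Car3 read 6.3 and 14.6 RPKM in wild type, 0.7 and 2.8 in the ZnF1 and 9.5 and 12.5 in the ZnF4 mutant, and the far more abundant Car2 203.4 and 298.4 RPKM in wild type, 30.3 and 107.1 in the ZnF1 and 286.5 and 215.5 in the ZnF4 mutant. The Car2 call (-2.09 ± 0.49 SE, adjusted p = 0.0251) was lost on omitting either wild type library or the ZnF1 day 21 library (adjusted p then up to 0.185). Fetub, of the fetuin family, was lower in the ZnF1 mutant and higher in the ZnF4 mutant, at 6.4 and 8.9 in wild type, 0.3 and 0.8 in the ZnF1 and 14.7 and 40.9 in the ZnF4 mutant (-2.48 ± 0.26 SE, adjusted p = 0.00216).

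Il33, an alarmin cytokine, read 16.3 and 13.5 RPKM in wild type, 3.4 and 2.9 in the ZnF1 and 0.6 and 1.0 in the ZnF4 mutant, with both mutants lower (-1.93 ± 0.16 SE, adjusted p = 0.00139). Sytl2, a vesicle transport gene, read 15.8 and 15.2 RPKM in wild type, 2.3 and 3.4 in the ZnF1 and 1.2 and 1.1 in the ZnF4 mutant (-2.11 ± 0.15 SE, adjusted p = 0.00104), and the adhesion molecule gene Epcam 4.8 and 3.7 RPKM in wild type, 0.1 and 0.7 in the ZnF1 and 0.6 and 0.8 in the ZnF4 mutant. Btla, an inhibitory receptor of lymphocytes, fell from 3.2 and 6.3 to 0.5 and 0.5, a call lost on omitting the ZnF1 day 28 library (adjusted p then up to 0.0533). Cxcr5, the follicle homing receptor, read 26.1 and 17.6 RPKM in wild type, 1.5 and 5.7 in the ZnF1 and 1.9 and 4.6 in the ZnF4 mutant, and its call (-2.46 ± 0.46 SE, adjusted p = 0.0127) was lost on omitting the ZnF1 day 21 library or either ZnF4 library (adjusted p then up to 0.113). Among abundant genes, Nedd9, a scaffold of integrin signalling, read 141.9 and 116.3 in wild type, 70.7 and 67.8 in the ZnF1 and 118.6 and 116.2 in the ZnF4 mutant (-0.88 ± 0.09 SE, adjusted p = 0.00203).

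Genes next to those that changed most were examined in the order of the GRCm38.p6 annotation. They were matched to it by symbol or by any listed synonym. A synonym that different genes share can put a gene in the wrong place, and the matches were not checked, so the counts are approximate. Next to the 25 genes with the largest rises (24 placed), 27 tested genes were matched. Of these 14 were higher and 2 lower, with a median of 0.34. Next to the 25 with the largest falls (24 placed), 30 tested genes were matched, 3 higher and 13 lower, with a median of -0.22. Dennd1a, whose product acts in endocytic traffic, adjoins Lhx2 and read 8.9 and 8.1 RPKM in wild type, 17.8 and 16.9 in the ZnF1 and 13.4 and 14.6 in the ZnF4 mutant (0.95 ± 0.09 SE, adjusted p = 0.00175), while Nek6 on the other side was not called (0.25 ± 0.10 SE, adjusted p = 0.0977). Tpcn2, an endolysosomal ion channel next to Ccnd1, read 6.8 and 6.4 RPKM in wild type, 14.2 and 13.2 in the ZnF1 and 7.0 and 6.0 in the ZnF4 mutant (0.95 ± 0.08 SE, adjusted p = 0.00148). Pik3r4, the regulatory subunit of the class III PI3-kinase, adjoins Col6a6 and read 22.4 and 18.7 RPKM in wild type, 43.3 and 40.9 in the ZnF1 and 16.4 and 15 in the ZnF4 mutant (1.0 ± 0.08 SE, adjusted p = 0.00119). In the ZnF4 mutant Tpcn2 and Pik3r4 stood near or below the wild type values given, beside high Ccnd1 and Col6a6. The kit description names no strand marking, so reads of overlapping neighbours cannot be told apart.

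Cell division genes were lower together and by small amounts. Of 40 mitosis and spindle checkpoint genes 37 were called lower and none higher, against 15.2% of all genes (median -0.51). Mki67, the proliferation antigen, read 248.9 and 215.6 RPKM in wild type, 163.0 and 137.6 in the ZnF1 and 294.4 and 241.0 in the ZnF4 mutant (-0.63 ± 0.08 SE, adjusted p = 0.00319). Top2a, which untangles chromosomes, read 268.3 and 255.0 RPKM in wild type, 167.1 and 172.6 in the ZnF1 and 315.0 and 264.8 in the ZnF4 mutant, and Ccna2, cyclin A, 202.2 and 209.3 RPKM in wild type, 131.5 and 139.8 in the ZnF1 and 246.5 and 234.9 in the ZnF4 mutant. In all of these the ZnF1 libraries were below every other library. Cdc25b, a phosphatase that triggers mitosis, fell most (71.5 and 69 RPKM in wild type and 34.2 and 38.7 in the ZnF1 mutant, -0.93 ± 0.08 SE, adjusted p = 0.00161) and was the only member called in every leave-out. Of 40 DNA replication genes 32 were lower and none higher (median -0.41), and none was called in every leave-out. Mcm3, of the replicative helicase, read 194.5 and 186.3 RPKM in wild type, 139.3 and 131.8 in the ZnF1 and 215.8 and 206.3 in the ZnF4 mutant, Mcm6 159.9 and 159.6 RPKM in wild type, 126.2 and 128.6 in the ZnF1 and 182.7 and 179.1 in the ZnF4 mutant, and the ribonucleotide reductase gene Rrm1 152.7 and 150.2 RPKM in wild type, 101.1 and 104.6 in the ZnF1 and 177.8 and 164.4 in the ZnF4 mutant. The calls of Mki67, Top2a and Ccna2 were lost on omitting either wild type library or the ZnF1 day 21 library (adjusted p then up to 0.0741, 0.111 and 0.0856). The calls of Mcm3 and Mcm6 were lost on omitting either wild type library or either ZnF1 library (adjusted p then up to 0.0982 and 0.179). The call of Rrm1 was lost on omitting either wild type library or the ZnF1 day 21 library (adjusted p then up to 0.0856). In fits that each lacked 1 library (wild type day 21, wild type day 28, ZnF1 day 21 and ZnF1 day 28, in this order), lower mitosis genes numbered 3, 3, 4 and 12, and lower replication genes numbered 0, 1, 1 and 7.

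Cyclins, Cdks and the Rb and E2F families fell at 11 of 21 and rose at 1 (Ccnd1) (median -0.34). Ccne1, cyclin E, read 32.1 and 30.6 RPKM in wild type, 19.6 and 19.2 in the ZnF1 and 38.3 and 34.6 in the ZnF4 mutant and was called in every leave-out (-0.66 ± 0.07 SE, adjusted p = 0.00211). DNA repair genes fell at 20 of 39 (median -0.30), none in every leave-out. Lig4, the ligase of end joining, fell by 0.63 and Xrcc5 (Ku80) by 0.58, and Dclre1c (Artemis), which opens recombination hairpins, rose from 5.6 and 4.8 to 10.7 and 9.0 RPKM (0.81 ± 0.08 SE, adjusted p = 0.00207). The call of Lig4 was lost on omitting either wild type library, the ZnF1 day 21 library or either ZnF4 library (adjusted p then up to 0.287). The call of Xrcc5 was lost on omitting either wild type library or the ZnF1 day 21 library (adjusted p then up to 0.06). Among Cdk inhibitors Cdkn1a, the p21 gene, was not called at 162.8 and 154.1 RPKM in wild type and 158.5 and 193.3 in the ZnF1 mutant, in contrast to 63.1 and 70.7 in the ZnF4 mutant (ZnF4 minus ZnF1 -1.38, adjusted p = 0.000726). Cdkn2a, which encodes the Ink4a and Arf proteins, read 25.2 and 40.2 RPKM in wild type, 20.3 and 41.7 in the ZnF1 and 10.4 and 17.3 in the ZnF4 mutant, a day difference larger than that between wild type and the ZnF1 mutant. Myc was not called (172.7 and 175.9 RPKM in wild type and 141.8 and 145.2 in the ZnF1 mutant, -0.28 ± 0.15 SE, adjusted p = 0.195). Without 1 library at a time (wild type day 21, wild type day 28, ZnF1 day 21 and ZnF1 day 28, in this order), lower cyclin, Cdk and Rb genes numbered 3, 1, 2 and 5, higher ones numbered 1, 1, 1 and 1, and lower repair genes numbered 1, 0, 1 and 4. There were 2 higher cyclin, Cdk and Rb genes without ZnF4 day 21 and 2 higher cyclin, Cdk and Rb genes without ZnF4 day 28.

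Biosynthetic groups were lower as well. Ribosome biogenesis genes fell at 20 of 29 (median -0.38), among them the nucleolar proteins Ncl (306.9 and 295.7 RPKM in wild type, 190.9 and 177.3 in ZnF1 cells, 283.0 and 248.1 in ZnF4 cells) and Npm1 (-0.75). Genes of serine, one-carbon and nucleotide synthesis fell at 21 of 27 (median -0.39), with Shmt2 at 128.5 and 153.9 RPKM in wild type, 96.3 and 107.9 in the ZnF1 and 194.3 and 263.5 in the ZnF4 mutant and Tyms, thymidylate synthase, lower by the most (-0.91). Aminoacyl-tRNA synthetases fell at 16 of 20 (median -0.36), led by Iars (-0.60). Cholesterol and fatty acid synthesis genes fell at 15 of 27 (median -0.35). Scd2, a fatty acid desaturase, fell by 0.89, and Fdft1, squalene synthase, was the 1 rise (0.77 ± 0.08 SE, adjusted p = 0.00224). Chaperones fell at 13 of 26 and rose at 2 (median -0.33). Hsp90ab1 read 1186.5 and 1247.7 RPKM in wild type and 854.1 and 902.6 in the ZnF1 mutant, and Bag3, a partner of Hspb8, rose from 1.4 and 1.0 to 7.0 and 8.2 (1.97 ± 0.16 SE, adjusted p = 0.00135). The calls of Ncl and Iars were lost on omitting the wild type day 28 library (adjusted p then up to 0.0666 and 0.0639). The calls of Npm1 and Shmt2 were lost on omitting either wild type library or either ZnF1 library (adjusted p then up to 0.161 and 0.16). The call of Tyms was lost on omitting either wild type library or the ZnF1 day 21 library (adjusted p then up to 0.0986). The call of Scd2 was lost on omitting the wild type day 28 library or either ZnF1 library (adjusted p then up to 0.106). The call of Hsp90ab1 was lost on omitting any single library of the 6 (adjusted p then up to 0.259). In contrast, 1 of 40 cytosolic ribosomal protein genes was called (Rpl14, -0.27), and 11 were called lower under quantile scaling. The call of Rpl14 was lost on omitting either wild type library or either ZnF1 library (adjusted p then up to 0.311). Leaving out 1 library at a time (wild type day 21, wild type day 28, ZnF1 day 21 and ZnF1 day 28) gave, in this order, 2, 0, 3 and 3 lower ribosome biogenesis genes, 1, 0, 1 and 2 lower one-carbon and nucleotide genes, 2, 0, 2 and 1 lower tRNA synthetases, 4, 0, 1 and 0 lower lipid synthesis genes, 1, 1, 2 and 3 lower chaperones, and 1, 1, 2 and 1 higher chaperones.

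Among signalling genes, AP-1 and immediate early genes rose at 13 of 22 with none lower (median 0.90, 9 in every leave-out). Fos, an AP-1 subunit, read 6.8 and 10.5 RPKM in wild type, 46.4 and 39 in the ZnF1 and 3.3 and 6.5 in the ZnF4 mutant (2.20 ± 0.25 SE, adjusted p = 0.00277). Atf3 (2.03), Fosl2 (1.5), Egr2 (1.52) and the antiproliferative gene Btg2 (1.76) rose, while Jun at 21.1 and 31.6 RPKM in wild type, 42.9 and 40.1 in the ZnF1 and 33.2 and 57.2 in the ZnF4 mutant was not called (0.66 ± 0.21 SE, adjusted p = 0.0564). Genes that restrain ERK signalling rose at 7 of 21 (median 0.23), with Dusp1 from 6.3 and 8.9 to 23.6 and 21.4 RPKM. Dusp6, a phosphatase of ERK, was not called (0.23 ± 0.09 SE, adjusted p = 0.11). Receptor tyrosine kinases rose at 12 of 20 with none lower (median 1.30, 9 in every leave-out). Besides Kit and Csf1r they included the phagocytic receptor Mertk (1.82), its relative Axl (1.63) and the fibroblast receptors Pdgfra (1.64) and Ddr2 (1.47). Macrophage and stromal markers moved in the same direction, and their part in this result was not tested. With single libraries removed in turn (wild type day 21, wild type day 28, ZnF1 day 21 and ZnF1 day 28), higher ERK feedback genes numbered 3, 3, 5 and 7.

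TGF-beta and BMP genes rose at 20 of 32 with none lower (median 0.70, 9 in every leave-out). The matrix-bound protease Bmp1 (1.88), the co-receptor Tgfbr3 (1.67, highest in the ZnF4 mutant at 9.2 and 8.5 RPKM) and the latent binding protein Ltbp1 (1.45) were among the rises, while the ligand Tgfb1 was the most abundant and not called (0.02 ± 0.09 SE, adjusted p = 0.873). Canonical Wnt genes rose at 9 of 20. Tcf7l1, a repressor of Wnt targets, read 3.1 and 2.0 RPKM in wild type, 17.5 and 12.2 in the ZnF1 and 15.3 and 11.7 in the ZnF4 mutant, and both mutants lay above wild type (2.16 ± 0.08 SE, adjusted p = 0.001). The secreted Wnt antagonist Sfrp1 rose by 1.83, and the effectors Lef1 and Ctnnb1 were not called (-0.36 ± 0.13 SE, adjusted p = 0.075 and -0.07 ± 0.07 SE, adjusted p = 0.509). Of 12 Notch genes 5 rose and 1 fell, with Jag1, a ligand (1.38), and the receptor Notch2 (3.4 and 2.8 RPKM in wild type, 10.2 and 7.4 in the ZnF1 mutant, 1.25 ± 0.14 SE, adjusted p = 0.00245) higher and Notch1 lower (-0.30 ± 0.07 SE, adjusted p = 0.0314), a call lost on omitting either wild type library or either ZnF1 library (adjusted p then up to 0.225). In fits that each lacked 1 library (wild type day 21, wild type day 28, ZnF1 day 21 and ZnF1 day 28, in this order), higher TGF-beta and BMP genes numbered 15, 10, 12 and 14, higher Wnt genes numbered 5, 5, 6 and 6, and higher Notch genes numbered 2, 2, 3 and 3.

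Of 35 genes of the PI3K, Akt and mTOR pathway 8 rose, the same share as the 22.9% of all genes, and 3 fell (median 0.01). Grb10 read 2.6 and 2.0 RPKM in wild type, 10.9 and 7.6 in the ZnF1 and 30.5 and 16.8 in the ZnF4 mutant (1.62 ± 0.15 SE, adjusted p = 0.00159). Grb7, of the same adaptor family and adjacent to Ikzf3, went the other way at 48.6 and 36.6 RPKM in wild type, 6.3 and 9.4 in the ZnF1 and 26.7 and 12.3 in the ZnF4 mutant (-2.31 ± 0.35 SE, adjusted p = 0.00681), a call lost on omitting either wild type library (adjusted p then up to 0.0906). Gab1, a docking protein, rose by 1.52, and the lipid phosphatase gene Inpp4b by 0.84. The call of Gab1 was lost on omitting the wild type day 21 library (adjusted p then up to 0.0556). Of 28 cytokine receptors and STAT feedback genes 11 rose and 1 fell (median 0.25). Besides Il7r, Socs3 rose from 12.1 and 15.1 to 26.3 and 33.9 RPKM (1.09 ± 0.09 SE, adjusted p = 0.00142), whereas Cish and Socs2, targets of STAT5, were not called (-0.04 ± 0.07 SE, adjusted p = 0.707 and 0.03 ± 0.08 SE, adjusted p = 0.794), nor was Pim1 (0.09 ± 0.09 SE, adjusted p = 0.47). Without 1 library at a time (wild type day 21, wild type day 28, ZnF1 day 21 and ZnF1 day 28, in this order), higher PI3K, Akt and mTOR genes numbered 4, 3, 5 and 7, lower genes of that list numbered 0, 0, 1 and 1, higher cytokine receptor and feedback genes numbered 3, 3, 2 and 2, and lower genes of that list numbered 0, 0, 1 and 0. There were 5 lower PI3K, Akt and mTOR genes without ZnF4 day 21 and 5 lower PI3K, Akt and mTOR genes without ZnF4 day 28.

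Integrin chains rose at 10 of 12 with none lower (median 1.0, 8 in every leave-out). Itgam, the alpha chain of the phagocyte integrin Mac-1, rose by 2.16 and its beta chain gene Itgb2 by 1.2. Itgam is also one of the 10 macrophage markers. Those markers and the stromal ones moved in the direction of the integrin, focal adhesion, TGF-beta, Wnt and Notch rises, and their part in them was not tested. Itgb1, the shared beta chain, read 38.3 and 35.5 RPKM in wild type, 67.5 and 69.8 in the ZnF1 and 67.2 and 66 in the ZnF4 mutant and so was high in both mutants (0.88 ± 0.07 SE, adjusted p = 0.00133). Itga4, which pairs with it on lymphocytes, was not called (-0.20 ± 0.07 SE, adjusted p = 0.0728). Focal adhesion and catenin genes rose at 18 of 31 and fell at 3 (median 0.85). Ptk2, focal adhesion kinase, read 1.3 and 1.3 RPKM in wild type, 8.3 and 6.1 in the ZnF1 and 15.7 and 16 in the ZnF4 mutant, and Ctnnd1, a catenin of the cadherin complex, 14.8 and 14.5 RPKM in wild type, 33.2 and 33.9 in the ZnF1 and 52.5 and 54.7 in the ZnF4 mutant, both highest in the ZnF4 mutant. Actin regulators and their GTPases rose at 10 of 36, near the background, and fell at 3. Rhoc read 6.7 and 5.2 RPKM in wild type, 29.7 and 35.6 in the ZnF1 and 5.3 and 4.7 in the ZnF4 mutant (2.28 ± 0.15 SE, adjusted p = 0.00102), and Dock1 0.5 and 0.3 RPKM in wild type, 3.0 and 2.6 in the ZnF1 and 12.4 and 11.5 in the ZnF4 mutant, while the abundant genes Pfn1 and Coro1a were not called. Ezr, the membrane linker ezrin, fell from 182.5 and 218.3 to 100.2 and 127.6 RPKM (-0.81 ± 0.10 SE, adjusted p = 0.00364), a call lost on omitting either wild type library or the ZnF1 day 21 library (adjusted p then up to 0.0718). Leaving out 1 library at a time (wild type day 21, wild type day 28, ZnF1 day 21 and ZnF1 day 28) gave, in this order, 1, 1, 1 and 1 lower focal adhesion genes, 5, 5, 6 and 5 higher actin regulators and GTPases, and 0, 0, 0 and 1 lower actin regulators and GTPases.

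Chromatin complexes showed small differences. Of 13 NuRD subunits 6 fell and 1 rose (median -0.24), and the ATPase gene Chd4 read 135.5 and 121.6 RPKM in wild type, 111.7 and 102.6 in the ZnF1 and 143.9 and 141.8 in the ZnF4 mutant (-0.26 ± 0.07 SE, adjusted p = 0.0436). Of 28 Polycomb genes 8 fell and none rose (median -0.10), with Ezh2, the histone H3 methylase, at 199.8 and 198.5 RPKM in wild type, 130.9 and 145.8 in the ZnF1 and 168.6 and 158.9 in the ZnF4 mutant (-0.52 ± 0.09 SE, adjusted p = 0.00927). Of 22 SWI/SNF subunits 7 fell and 1 rose (median -0.19), and Smarca4 (Brg1) fell by 0.30. The lower members numbered 0 without wild type day 21, 0 without wild type day 28, 0 without ZnF1 day 21 and 1 without ZnF1 day 28, alike in all 3 lists. The calls of Chd4 and Smarca4 were lost on omitting either wild type library or either ZnF1 library (adjusted p then up to 0.303 and 0.26). The call of Ezh2 was lost on omitting either wild type library or the ZnF1 day 21 library (adjusted p then up to 0.12). Of 31 histone methylases and demethylases 4 fell and 1, Kdm5b, rose (1.2 and 0.8 RPKM in wild type and 3.5 and 3.1 in the ZnF1 mutant, 1.11 ± 0.10 SE, adjusted p = 0.00159). Dnmt1, the maintenance DNA methylase, fell by 0.48 and Dnmt3a, which methylates new sites, rose by 0.53. The call of Dnmt1 was lost on omitting either wild type library or either ZnF1 library (adjusted p then up to 0.1). The call of Dnmt3a was lost on omitting either wild type library or the ZnF1 day 28 library (adjusted p then up to 0.0948). The Polycomb gene Bmi1 and the histone demethylase Kdm6b were not called (-0.10 and 0.06). With single libraries removed in turn (wild type day 21, wild type day 28, ZnF1 day 21 and ZnF1 day 28), higher NuRD subunits numbered 0, 0, 0 and 0, higher SWI/SNF subunits numbered 1, 0, 0 and 0, and lower histone methylase and demethylase genes numbered 0, 0, 0 and 0.

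Of 15 tested stem and progenitor genes 8 rose and 1 fell. Besides Kit and Lmo2 the homeobox gene Pbx3 rose, at 0.6 and 0.3 RPKM in wild type, 3.9 and 2.6 in the ZnF1 and 4.7 and 4.7 in the ZnF4 mutant (1.54 ± 0.14 SE, adjusted p = 0.00152). Erg and Lyl1, blood progenitor factors that the leukaemia cells expressed at higher levels, were not called. Erg read 86.9 and 90.2 RPKM in wild type and 104.7 and 86.4 in the ZnF1 mutant, and Lyl1 89.7 and 96.7 RPKM in wild type and 68.4 and 101.7 in the ZnF1 mutant. Gfi1b, an erythroid and megakaryocyte repressor, went from 7.3 and 7.1 to 0.9 and 2.7 (-1.63 ± 0.29 SE, adjusted p = 0.0114), a call lost on omitting either ZnF1 library (adjusted p then up to 0.121). In fits that each lacked 1 library (wild type day 21, wild type day 28, ZnF1 day 21 and ZnF1 day 28, in this order), higher stem and progenitor genes numbered 6, 3, 7 and 5.

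Of 25 glycolytic genes 7 were higher and 7 lower (median -0.09), and quantile scaling gave 6 higher and 11 lower (median -0.25). Hk3, the hexokinase of myeloid cells, rose from 1.7 and 1.1 to 7.0 and 10.9 RPKM (2.03 ± 0.23 SE, adjusted p = 0.0028), and Pdk2 and Pfkfb4 rose by 1.10 and 1.06. Ldha, lactate dehydrogenase, fell from 178.0 and 194.7 to 122.1 and 127.4 RPKM, with 249.8 and 243.1 in the ZnF4 mutant, and Tpi1 fell by 0.74. The call of Ldha was lost on omitting either wild type library or either ZnF1 library (adjusted p then up to 0.0938). The call of Tpi1 was lost on omitting the wild type day 28 library or either ZnF1 library (adjusted p then up to 0.072). Of 28 hypoxia-response genes 5 rose and 2 fell. The adrenomedullin gene Adm (1.08) and Epas1, which encodes a hypoxia-inducible factor (1.48), were higher and Egln3 lower, while Hif1a and Vegfa were not called (-0.01 ± 0.06 SE, adjusted p = 0.904 and 0.21 ± 0.10 SE, adjusted p = 0.165). Ndrg1 stood at 3.1 and 2.0 RPKM in wild type, 2.6 and 2.9 in the ZnF1 and 45.8 and 43.6 in the ZnF4 mutant. Citric acid cycle genes fell at 8 of 25 (median -0.22), and none was called in any of the 4 fits without a wild type or ZnF1 library. The cytosolic enzymes Idh1 and Aco1 were the rises (0.98 and 1.01). The call of Idh1 was lost on omitting either ZnF1 library (adjusted p then up to 0.0603). Oxidative phosphorylation genes fell at 7 of 32 (median -0.21), a share near the 15.2% of all genes, which reached 36.8% among genes of 100 RPKM or more. Without 1 library at a time (wild type day 21, wild type day 28, ZnF1 day 21 and ZnF1 day 28, in this order), higher glycolytic genes numbered 4, 4, 5 and 6, lower glycolytic genes numbered 1, 0, 1 and 2, higher hypoxia-response genes numbered 3, 3, 6 and 3, lower hypoxia-response genes numbered 1, 1, 1 and 1, higher citric acid cycle genes numbered 2, 2, 1 and 1, and lower oxidative phosphorylation genes numbered 0, 0, 0 and 0.

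Redox genes that NRF2 can induce rose at 12 of 27 and fell at 2 (median 0.12). Hmox1, haem oxygenase, read 16.5 and 12.7 RPKM in wild type, 64.9 and 89.8 in the ZnF1 and 14.2 and 16 in the ZnF4 mutant (2.32 ± 0.19 SE, adjusted p = 0.00134), and Srxn1, which repairs peroxiredoxins, 2.3 and 1.8 RPKM in wild type, 11.5 and 12.8 in the ZnF1 and 1.2 and 1.9 in the ZnF4 mutant. Macrophages are rich in Hmox1 and in ferritin, and the ferritin gene Fth1 read 397.8 and 572.5 RPKM in wild type, 611.4 and 1038.9 in the ZnF1 and 386.0 and 531.4 in the ZnF4 mutant. Both ZnF1 libraries lay above wild type, and its call (0.74 ± 0.12 SE, adjusted p = 0.00739) was lost on omitting either wild type library or the ZnF1 day 28 library (adjusted p then up to 0.119). Keap1 and Txnrd1 were not called (-0.01 and -0.01). Autophagy genes rose at 14 of 26 and fell at 1, with Optn, a cargo receptor, at 1.4 and 1.1 RPKM in wild type and 6.8 and 6.6 in the ZnF1 mutant (1.78 ± 0.10 SE, adjusted p = 0.001). Of 33 genes of the ATF4 and unfolded protein responses 8 fell and 3 rose. Herpud1, of protein disposal at the endoplasmic reticulum, fell from 48.4 and 59.4 to 25.7 and 34.9 RPKM (-0.82 ± 0.07 SE, adjusted p = 0.00143), Asns, which makes asparagine, read 36.3 and 74.9 RPKM in wild type, 19.8 and 36.3 in the ZnF1 and 125.4 and 157.6 in the ZnF4 mutant, and Hspa5, the chief chaperone there, was not called (-0.16 ± 0.14 SE, adjusted p = 0.417). The call of Asns was lost on omitting the wild type day 28 library or either ZnF1 library (adjusted p then up to 0.126). Leaving out 1 library at a time (wild type day 21, wild type day 28, ZnF1 day 21 and ZnF1 day 28) gave, in this order, 4, 4, 7 and 5 higher redox genes, 0, 0, 0 and 0 lower redox genes, 3, 3, 4 and 3 higher autophagy genes, 0, 0, 0 and 0 lower autophagy genes, 3, 1, 3 and 2 lower stress-response genes, and 0, 0, 1 and 1 higher stress-response genes.

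Of 29 Bcl2 family and caspase genes 9 rose and 5 fell, against 22.9% and 15.2% of all genes, so the share that fell was near the background. Of the rises 1 was called in every leave-out, and of the falls none. Bmf, a death-promoting member, read 2.5 and 2.8 RPKM in wild type, 8.2 and 9.3 in the ZnF1 and 1.9 and 1.7 in the ZnF4 mutant and was that rise (1.42 ± 0.11 SE, adjusted p = 0.00122). Bcl2l11 (Bim), Mcl1 and Bcl2l1 (Bcl-xL) rose by 0.56, 0.48 and 0.38, and Bcl2 was not called (0.04 ± 0.12 SE, adjusted p = 0.803). The call of Bcl2l11 was lost on omitting either wild type library, the ZnF1 day 21 library or either ZnF4 library (adjusted p then up to 0.24). The calls of Mcl1 and Bcl2l1 were lost on omitting either wild type library or either ZnF1 library (adjusted p then up to 0.0961 and 0.149). Of 31 p53 target genes 8 rose, a share near the background, and 3 fell (median 0.14), with Plk2 (1.72) and Btg2 highest and Ccng1, Bax and Zmat3 not called (-0.14, 0.02 and 0.13). Trp53 itself fell by 0.41. The call of Trp53 was lost on omitting either wild type library or either ZnF1 library (adjusted p then up to 0.254). The host genes of the fusion, whose reads can include the transgene, moved apart: Bcr read 27.2 and 24.9 RPKM in wild type, 34.2 and 41.7 in the ZnF1 and 30.2 and 36.5 in the ZnF4 mutant, and Abl1 61.3 and 60.6 RPKM in wild type, 51.6 and 46.2 in the ZnF1 and 67.1 and 72.5 in the ZnF4 mutant. The call of Bcr was lost on omitting the wild type day 28 library, either ZnF1 library or either ZnF4 library (adjusted p then up to 0.171). The call of Abl1 was lost on omitting either wild type library or either ZnF1 library (adjusted p then up to 0.242). Of 8 tested genes listed as sex-linked transcripts 2 rose and 1 fell. The list was made from gene symbols and the chromosome of each gene was not checked. Rps4y2, given next, may therefore not be sex-linked in the mouse. Rps4y2 had the largest difference among them, at 0.5 and 0.4 RPKM in wild type, 21 and 19.6 in the ZnF1 and 1.0 and 6.7 in the ZnF4 mutant, and its call (3.88 ± 0.52 SE, adjusted p = 0.00465) was lost on omitting the wild type day 28 library or the ZnF1 day 21 library (adjusted p then up to 0.073). The Y-linked gene Ddx3y stood between 13 and 16.5 RPKM in all 6 libraries and Xist was listed at 0 in all of them. Eif2s3y, another Y-linked gene, read 23 and 10.6 RPKM in wild type, 36.5 and 36.5 in the ZnF1 and 42.1 and 35.5 in the ZnF4 mutant, and its call (1.17 ± 0.25 SE, adjusted p = 0.0192) was lost on omitting the wild type day 28 library, either ZnF1 library or either ZnF4 library (adjusted p then up to 0.139). With single libraries removed in turn (wild type day 21, wild type day 28, ZnF1 day 21 and ZnF1 day 28), higher Bcl2 and caspase genes numbered 2, 1, 2 and 4, lower Bcl2 and caspase genes numbered 0, 0, 0 and 2, higher p53 targets numbered 5, 3, 6 and 3, and lower p53 targets numbered 0, 1, 0 and 2.

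**Figure D4:**
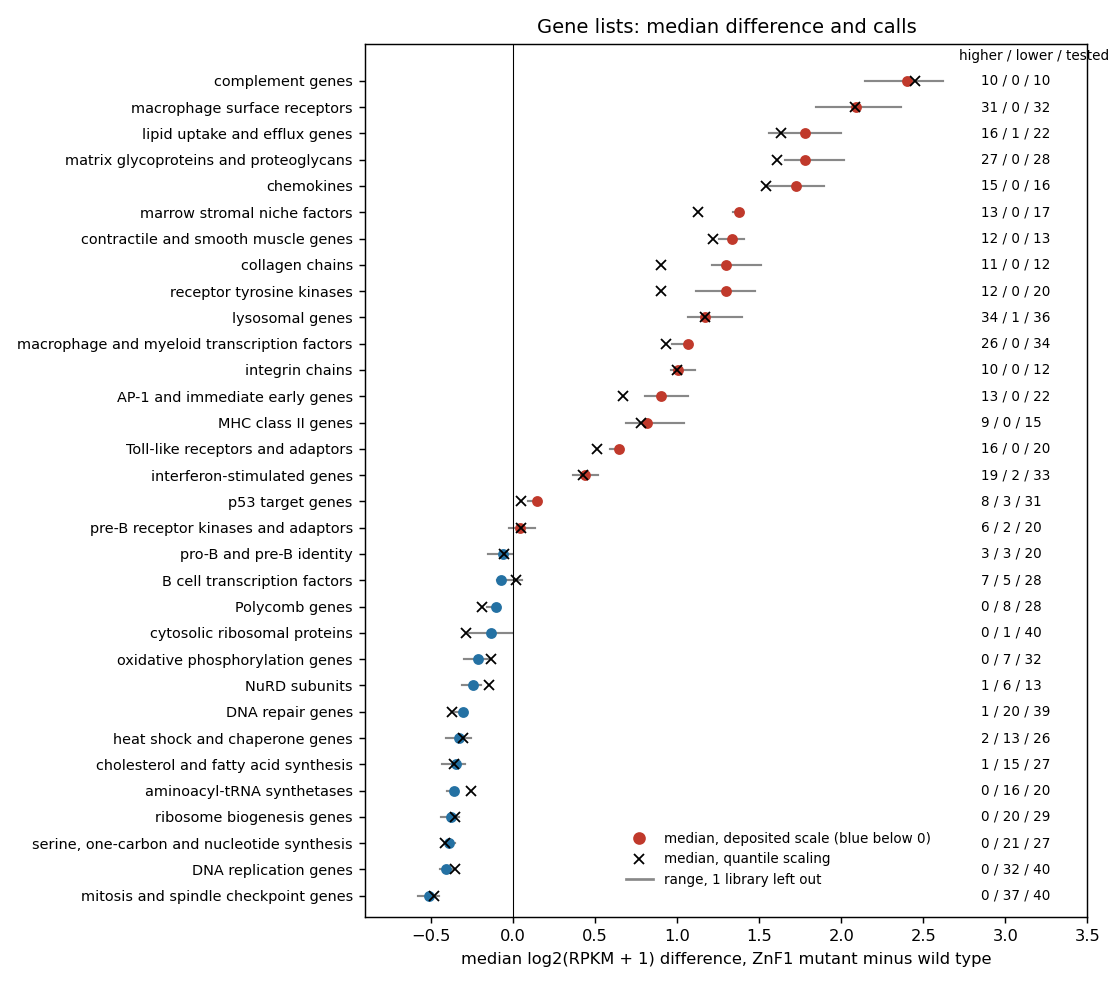
Median difference between the ZnF1 mutant and wild type (log2(RPKM + 1), horizontal axis) of 32 gene lists, with dots for the deposited scale, crosses for quantile scaling and grey lines for the range over the 6 fits that left out 1 library. Numbers at the right give the members called higher, called lower and tested. Complement genes and macrophage surface receptors lie highest at 2.40 and 2.09, and mitosis genes lowest at -0.51.

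Quantile scaling moved the balance of higher against lower calls by more than 10 percentage points in some lists. The counts of higher and lower genes were then 3 and 4 for hypoxia-response genes, 6 and 6 for the Bcl2 family and caspases, 9 and 6 for PI3K, Akt and mTOR genes and 11 and 4 for cytokine receptors and STAT feedback genes. They were 8 and 3 for B cell transcription factors, 4 and 2 for pro-B and pre-B identity, 5 and 0 for MHC class I genes and 4 and 7 for fatty acid oxidation. They were 6 and 1 for canonical Wnt genes, 4 and 2 for Notch genes and 12 and 2 for receptor tyrosine kinase genes. SWI/SNF subunits gave 2 and 5, imprinted genes 7 and 1 and LIM partner genes 3 and 3.

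Calls in either direction were spread unevenly over expression levels. Of genes with a mean below 1 RPKM over the wild type and ZnF1 libraries, 53.6% were called higher and 3.7% lower. At 10 to 20 RPKM the shares were 16.5% and 13.5%, and at 100 RPKM or more they were 9.9% and 36.8%. For lists of low genes the rises, and for lists of abundant genes the falls, therefore have a larger background than the shares of all genes. Genes called higher made up 8.74% and 8.05% of the summed RPKM in the wild type libraries, 18.47% and 17.84% in the ZnF1 and 11.02% and 10.18% in the ZnF4 mutant. Genes called lower made up 30.55% and 30.96% in wild type, 22.89% and 23.04% in the ZnF1 and 30.47% and 30.57% in the ZnF4 mutant. RPKM values of a library share 1 total, so the share that one set gains is taken from others, and the part of this in the small falls of abundant genes was not tested.

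**Figure D5:**
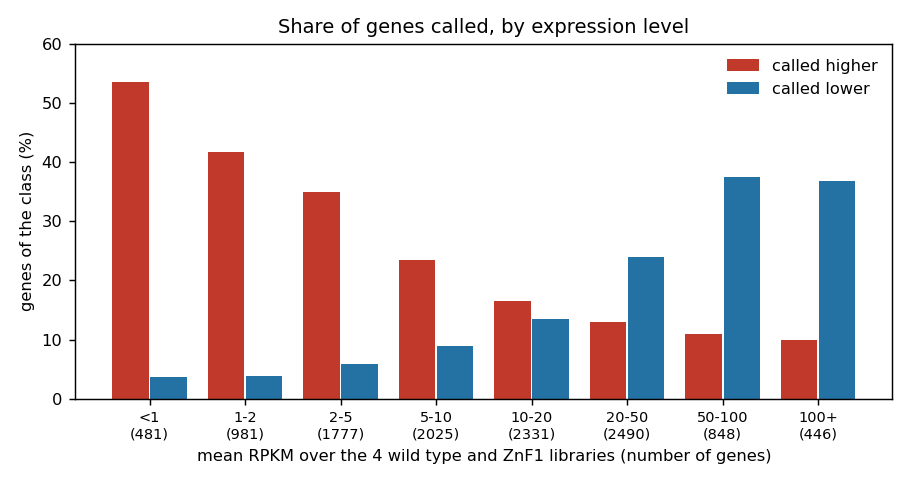
Share of genes (%) called higher (red bars) and lower (blue bars) in the ZnF1 mutant, by mean RPKM over the 4 wild type and ZnF1 libraries, with the number of genes in each class. Higher calls decline from 53.6% to 9.9% with level, and lower calls reach 37.5% at 50 to 100 RPKM.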

How the data were processed

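The 6 poly(A) RNA libraries comprised 1 per genotype and day, over 3 Ikaros genotypes and 2 days. The authors deposited 1 table of RPKM for 26531 transcripts, rounded to 1 decimal. TopHat, bedtools and build mm9 are named in the submitters' processing notes, without versions or settings. Read counts could not be recovered from the RPKM steps, so depth, counting error and a count test are out of reach here. One line with no gene name was left out. Of 22098 symbols 3305 had several transcripts, and each of these was represented by its transcript of highest mean RPKM. Genes with at least 1 RPKM in at least 2 of the 6 libraries were tested.

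Values on the log2(RPKM + 1) scale (pseudocount 1) were fitted with limma 3.58.1 (R 4.3.3; lmFit and eBayes with a mean-variance trend) on genotype and day over all 6 libraries. Adjusted p-values are Benjamini-Hochberg over all 11379 genes, and calls are at 0.05. Day served as the replicate block: the day changes of same-day libraries correlated across genes at r of 0.433, 0.249 and 0.226 for the 3 genotype pairs, over genes that are not independent. The fit has 2 residual degrees of freedom and a prior of 3.22. On data simulated for this comparison over 11379 genes, 54% of 50 genes with a log2 change of 0.5 were called, and 100% of 50 with a change of 1. The simulation changed far fewer genes than were called in the real data and drew independent noise for each library. These rates may therefore not carry over to the real data.

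The gene lists, and the rule for named genes, were chosen with earlier results of these data known. Named were the 25 called genes per direction with the largest differences among those at least 2-fold apart on both days, members of lists with up to 15 tested genes, in longer lists the 8 called members with the largest differences and the 3 most abundant, the 10 most abundant called genes per direction that were at least 1.5-fold apart on both days, neighbours of the first set, and some lineage and cell cycle genes. Chosen outside it, after their values were seen, were Atp6v0d1, Atp6v1a, Bcl2, Blk, Btk, Cd79a, Cish, Ctnnd1, Ctse, Ddr2, Jun, Kdm6b, Keap1, Marco, Mitf, Msr1, Myd88, Ndrg1, S1pr1, S1pr3, Socs2, Tnf, Trp53, Txnrd1 and Zmat3. Some named genes are not reported here. Sequences came from GRCm38 reference files, read with Python 3.11.15, and no coordinate was taken from the RPKM table. Alternatives left out each library, dropped the block, changed the pseudocount, the filter, the scaling, the trend, the transcript choice or the libraries in the fit.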

Additional observations from a re-analysis of the deposited data

How the results depend on the processing

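Leaving out 1 library at a time gave 1398 to 4475 called genes, with 1266 to 2545 higher and 132 to 1930 lower. The 4 fits that lacked a wild type or ZnF1 library gave 1398 to 1770, having 1 sample in that group, which is assumed to vary like the others. For the ZnF4 against the ZnF1 mutant the leave-out counts were 2526 to 3896. Without the replicate block for day 3653 genes were called, 2418 higher and 1235 lower. A filter at a mean of 4 RPKM left 1406 higher genes, and quantile scaling gave 2913 lower genes. Of genes at least 2-fold apart on both days, that filter left 458 higher and 32 lower, quantile scaling 607 and 104, and a pseudocount of 0.1 gave 92 lower. Under quantile scaling Hoxb4 turned to -0.0092 and Ssbp2 to -0.41. The causes were not tested, beyond the smaller number of genes that the filter tests. Without a filter 3130 higher and 1267 lower genes were called, so 71.2% of the calls were higher, against 47.6% with the filter at 4 RPKM, 66.2% without the block and 60.1% as reported. With 2 libraries per genotype, unknown depth and RPKM given to 1 decimal, small differences and those of low genes are the least certain.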

Other observations

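Chemokine receptors rose at 5 of 8 tested and fell at 1, Cxcr5. Ccr1, a receptor of monocytes and macrophages, read 1.7 and 1.3 RPKM in wild type, 6.0 and 8.4 in the ZnF1 and 1.3 and 1.2 in the ZnF4 mutant, and the ZnF1 libraries lay above all others (1.70 ± 0.17 SE, adjusted p = 0.00207, limma). Cxcr4, the receptor of Cxcl12 on B cell precursors, was not called, at 80.1 and 70.4 RPKM in wild type, 68.5 and 80.6 in the ZnF1 and 81.7 and 93.8 in the ZnF4 mutant (-0.02 ± 0.12 SE, adjusted p = 0.928).

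Of 8 tested adipocyte genes 5 rose and 1, Car3, fell, and 3 rose without the wild type day 28 library. Fabp4, a fatty acid carrier of adipocytes and macrophages, read 1.9 and 0.9 RPKM in wild type, 8.6 and 12.4 in the ZnF1 and 0.8 and 0.6 in the ZnF4 mutant (2.27 ± 0.26 SE, adjusted p = 0.0027). Among genes of fatty acid oxidation and peroxisomes 4 of 26 rose and 4 fell, the falls at a share near the 15.2% of all genes. Ehhadh, an enzyme of peroxisomal oxidation, read 0.1 and 0.1 RPKM in wild type, 1.5 and 1.1 in the ZnF1 and 0.2 and 0.1 in the ZnF4 mutant (1.06 ± 0.11 SE, adjusted p = 0.00223, limma). Ehhadh passed the filter only through the ZnF1 libraries, where it was high, so the filter favoured this rise. Acsl5, which activates fatty acids, read 103.5 and 112.9 RPKM in wild type, 77.4 and 83.1 in the ZnF1 and 106.7 and 97.9 in the ZnF4 mutant, and its fall (-0.43 ± 0.09 SE, adjusted p = 0.0177) was not called without a wild type or ZnF1 library (adjusted p up to 0.179). No oxidation gene called lower was called in any of the 4 fits without a wild type or ZnF1 library, and the rises numbered 1 in each of those 4 fits. Macrophage markers moved in the direction of the receptor and lipid genes that rose, and their part was not tested.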
